A study of Mus with 21 samples.

Results

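The immediate early genes *Fos*, *Fosb*, *Junb*, *Egr1*, *Egr2*, *Nr4a1*, *Arc*, *Npas4*, *Ier2* and *Dusp1* were described in the brain of mouse embryos that carry a single functional copy of *Nipbl*, of *Wapl*, or of each. The 10 genes were picked by symbol from the 55335 genes of the deposited table, and every one of them was found and passed the filter on low counts. RNA-seq was performed on the whole brain of single female embryos at E17.5, on the C57BL/6J background, in 21 libraries. The groups were *WT* (n = 5), *Nipbl*+/- (n = 3), *Wapl* Δ/+ (n = 7) and the double heterozygote *Wapl* Δ/+ *Nipbl*+/- (n = 6). The Δ allele of *Wapl* lacks the promoter and the first exons, and the null allele of *Nipbl* was made by deletion in the male germline. Both losses are constitutive, so they affect all cells of the embryo and not only neurons. Levels are given as normalized counts, which are read counts divided by the TMM-scaled library size and brought to a common depth, and fold changes are on the log2 scale.

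Immediate early genes are transcribed within minutes of a stimulus without new protein synthesis, because the factors that switch them on are already bound at or near their promoters. In neurons, calcium entry and MAP kinase signalling act on SRF with its ternary complex partners, on CREB and on MEF2, and the products of these genes then drive a later wave of targets that act at synapses. Their level also depends on the growth factor signals that dividing and vascular cells receive. Cohesin, the ring complex that NIPBL loads onto chromatin and WAPL releases, folds chromosomes into loops, and inducible genes with distant enhancers are among those studied in its absence.

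The labels were checked on the targeted genes. *Nipbl* ranged from 1104 to 1287 normalized counts in *Nipbl*+/- brains and from 1135 to 1244 in double heterozygotes, against 2019 to 2402 in *WT* and 1956 to 2243 in *Wapl* Δ/+ brains. *Wapl* ranged from 590.4 to 755.4 in *Wapl* Δ/+ brains and from 704.2 to 774.5 in double heterozygotes, against 1389 to 1606 in *WT* and 1320 to 1470 in *Nipbl*+/- brains. Total counts on genes lay between 25682566 and 35818767 per library. The libraries fell into a pair of sets by *mt-Nd3*, a mitochondrial transcript, with 0 to 6 counts in 12 libraries and 52 to 106 counts in the other 9. All 3 *Nipbl*+/- libraries had low *mt-Nd3*, as did 3 of 5 *WT*, 2 of 7 *Wapl* Δ/+ and 4 of 6 double-heterozygote libraries. The neuronal markers *Tubb3*, *Dcx* and *Stmn2*, which mark the labelled tissue, each had at least 22326 read counts, before normalization, in every library. The labels do not tie embryos to litters, so the p-values measure the spread between these libraries, and with bulk RNA fewer expressing cells and less RNA per cell cannot be told apart.

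All 10 immediate early genes were read in every library. *Dusp1*, which encodes a phosphatase that switches off MAP kinases, had a *WT* mean of 593.8 ± 33.9 normalized counts (SD, n = 5), and *Junb*, a JUN-family subunit of the AP-1 transcription factor, one of 505.5 ± 16.6. *Npas4*, a neuronal transcription factor induced by calcium entry, stood at 501.7 ± 22.6 and *Nr4a1*, an orphan nuclear receptor, at 403.8 ± 17.1. *Egr1*, a zinc finger transcription factor, had 221.9 ± 28.9, *Ier2*, a short nuclear protein, 188.3 ± 8.66, and *Arc*, a regulator of glutamate receptor endocytosis, 140.1 ± 9.38. *Fos* and *Fosb*, the FOS-family subunits of AP-1, had 54.6 ± 5.82 and 14.2 ± 5.49, and *Egr2*, a zinc finger factor that also patterns the hindbrain, 20.4 ± 5.68. These counts were not divided by transcript length, so they do not rank the genes by level.

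The spread between embryos set what could be seen for each gene. The coefficient of variation within groups, pooled over the 4 genotypes, was 14.5% for *Fos*, while counting error alone gives 13.6% at its depth. *Egr2* varied by 17.8%, less than the 22.5% that counting gives, so the embryos could not be told apart in *Egr2*. *Fosb* varied by 35.7% against 26.1% from counting. The deeper genes varied beyond counting error, by 11.1% against 3.94% for *Dusp1*, by 16.8% against 7.00% for *Egr1* and by 14.8% against 6.97% for *Ier2*. *Nr4a1* was the least variable at 7.33%, with 4.97% from counting, and *Npas4* and *Junb* followed at 8.69% and 8.80%.

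**Figure D1:**
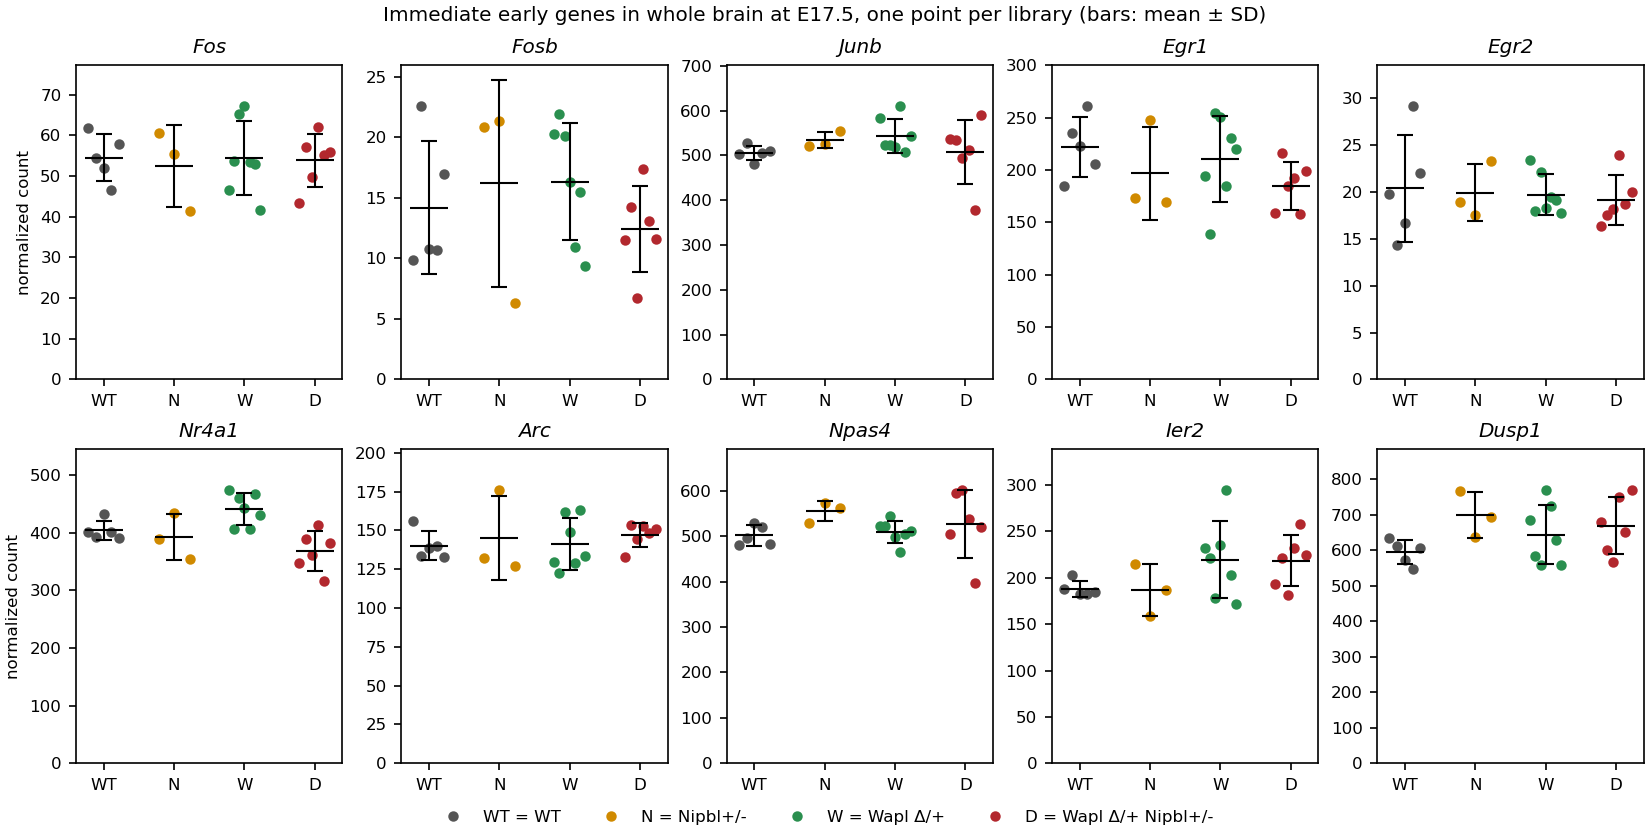
Normalized count of each immediate early gene (y axis, from 0, a separate scale per gene) by genotype (x axis), with 1 point per library and bars for the mean ± SD. The genotypes overlap for every gene except *Dusp1*, for which all 3 *Nipbl*+/- libraries (637 to 767) lie above all 5 *WT* libraries (547 to 633).

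The comparison of *Nipbl*+/- with *WT* brains asks how these genes stand with a single functional copy of the cohesin loader. Cohesin loading and release were not measured in these libraries. *Dusp1* rose, and the other 9 genes did not pass the test. *Dusp1* lies on chromosome 17 of GRCm38.p6 from 26505591 to 26508472. Its normalized counts were 633, 612, 572, 547 and 605 in the 5 *WT* libraries and 767, 637 and 694 in the 3 *Nipbl*+/- libraries. All *Nipbl*+/- libraries were above all *WT* libraries, the lowest by a few counts only. The log2 fold change was 0.23 (SE 0.0627, 95% interval 0.10 to 0.36, adjusted p = 0.0302, edgeR's quasi-likelihood test over all genes). Thus 1 of 10 immediate early genes was called, against 11.2% of the 30552 genes tested, and 1 of 10 did not overlap between the groups, against 13.4% of all genes. At an unadjusted p below 0.05 there were 2 of 10, against 20% of all genes. None of these counts was above the share over all genes. The call was lost without *Nipbl*+/- replicate 1, the highest library (0.16, adjusted p = 0.228), and within the low *mt-Nd3* libraries (0.20, adjusted p = 0.160).

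*Npas4* came next in *Nipbl*+/- brains. It had 480, 497, 530, 520 and 482 normalized counts in *WT* and 530, 572 and 562 in *Nipbl*+/- libraries, where only the highest *WT* library reached the lowest *Nipbl*+/- library. Its log2 fold change of 0.14 (95% interval 0.02 to 0.26) had an unadjusted p = 0.0287 in edgeR and an adjusted p = 0.179. *Egr1* had 185, 235, 223, 261 and 206 in *WT* and 173, 248 and 169.5 in *Nipbl*+/- libraries, and a single *Nipbl*+/- library, replicate 2, was among the high ones. Its log2 fold change was -0.17 (-0.45 to 0.10), and without that library it became -0.38 with an adjusted p = 0.0556, edgeR's test. *Arc* shared this high library, with 132, 176 and 127 in *Nipbl*+/- brains against 133 to 156 in *WT*. *Fos* had 60.6, 55.4 and 41.3 against 46.6 to 61.9 in *WT*, all but the lowest within the *WT* range, and a log2 fold change of -0.06 (-0.39 to 0.27). The log2 fold changes of *Junb* (0.07), *Nr4a1* (-0.05), *Arc* (0.05), *Ier2* (-0.02) and *Egr2* (-0.05) had intervals that held 0. *Fosb*, at 20.9, 21.4 and 6.36 in *Nipbl*+/- libraries, had an interval from -0.54 to 0.97, which leaves its direction undetermined at this depth. The 10 log2 fold changes had a median of 0.01, and over all genes tested the median was -0.00862.

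In *Wapl* Δ/+ brains, with a single functional copy of the cohesin release factor, none of the 10 genes was called by edgeR or by DESeq2. Of all genes 2.22% were called by edgeR, a count of 677 that ran from 9 (without *WT* replicate 2) to 1534 (without *Wapl* Δ/+ replicate 2) when a library was left out. At an unadjusted p below 0.05 there were 2, *Nr4a1* and *Ier2*, beside 15.6% of all genes, and the 10 genes all overlapped between the groups, as did all but 1.2% of the genes tested. *Nr4a1*, on chromosome 15 from 101253902 to 101274795, had 402, 392, 433, 402 and 391 normalized counts in the *WT* libraries, and from 406 through a median of 443 to 474 in the 7 *Wapl* Δ/+ libraries. Only *WT* replicate 3 reached the *Wapl* Δ/+ range, and the log2 fold change was 0.13 (95% interval 0.02 to 0.24, adjusted p = 0.227, edgeR). *Ier2* had 188, 203, 183, 182 and 185 in the *WT* libraries, and from 171 through a median of 221 to 295 in *Wapl* Δ/+ libraries. The *Wapl* Δ/+ values lay on both sides of the *WT* range, and the log2 fold change was 0.22 (0.00176 to 0.44, adjusted p = 0.314). The group SD of *Ier2* was 41.5 in *Wapl* Δ/+ and 8.66 in *WT* brains. *Junb* ran from 508 to 610 in *Wapl* Δ/+ against 481 to 527 in the *WT* libraries, and its log2 fold change of 0.11 had an unadjusted p = 0.0501. *Dusp1* ran from 558 through a median of 628 to 769, with a log2 fold change of 0.12 (-0.03 to 0.27). The log2 fold changes of *Fos* (0.00229), *Arc* (0.02), *Npas4* (0.03), *Egr2* (-0.05), *Egr1* (-0.07) and *Fosb* (0.23) each had an interval that held 0. The median of the 10 was 0.07, with 8 of 10 above 0, beside a median of -0.0034 over all genes.

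In double heterozygotes compared with *WT*, again none of the 10 genes was called by edgeR or DESeq2, with 3.28% of all genes called by edgeR (1001, and 454 to 2504 without a library), and no gene of the 10 was free of overlap, against 2.76% of all genes. An unadjusted p below 0.05 was reached by 3 genes, *Egr1*, *Ier2* and *Dusp1*, beside 13.5% of all genes. *Egr1* ran from 158 through a median of 189 to 216 normalized counts in the 6 double heterozygotes, against 185 to 261 in *WT*, and its log2 fold change was -0.26 (95% interval -0.46 to -0.05, adjusted p = 0.228). *Ier2* ran from 181 through a median of 223 to 258, with 4 of 6 libraries above all *WT* libraries and a log2 fold change of 0.22 (0.04 to 0.41, adjusted p = 0.236). *Dusp1* ran from 566 through a median of 665 to 769, with a log2 fold change of 0.18 (0.04 to 0.32, adjusted p = 0.226). Without double heterozygote replicate 3, which had the lowest *Ier2* and *Dusp1* of its group, both passed the edgeR threshold (log2 fold changes 0.27 and 0.22, adjusted p = 0.0806 and 0.0637). *Nr4a1* ran from 316 through a median of 372 to 414, below the *WT* mean in 5 of 6 libraries, with a log2 fold change of -0.13 (-0.26 to 0.00623). *Fos* ran from 43.3 to 62.1 with a log2 fold change of -0.01 (-0.27 to 0.24). The remaining genes, *Fosb* (-0.18), *Egr2* (-0.09), *Junb* (0.01), *Npas4* (0.08) and *Arc* (0.08), had unadjusted p-values of at least 0.321 in edgeR's test.

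Double heterozygote replicate 5 stood apart in several of these genes. It had the lowest *Junb* (377), *Npas4* (396) and *Nr4a1* (316) of its group and the highest *Ier2* (258). Its *Egr1* (157.9) was also the lowest, but next to that of replicate 1 (158.9). It belongs to the high *mt-Nd3* libraries and had the highest total count of its group, 33128901. Over the deeper genes of the whole table, its mean squared difference from the other 5 double heterozygotes was 7.15 to 10.1 times the counting variance, against 2.19 to 6.52 times among those 5. It had the highest summed heat shock and stress count (65776, against 59845 to 62128) and neuronal marker count (170174, against 153605 to 154952) of its group, and the lowest meningeal marker count (14890, against 18977 to 32363). The part of these in its values was not tested.

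The comparisons with *WT* share their 5 *WT* libraries, so their fold changes are not independent of each other. *Dusp1* had log2 fold changes of 0.23, 0.12 and 0.18 in *Nipbl*+/-, *Wapl* Δ/+ and double-heterozygote brains, and its group means stood at 118% ± 11.04, 108% ± 14.1 and 113% ± 13.5 (SD) of *WT*. *Ier2* stood at 99.1% ± 15.0, 117% ± 22.04 and 116% ± 14.6 of *WT* in the same order. *Egr1* was at 88.7% ± 19.9, 94.9% ± 18.4 and 83.4% ± 10.4, and *Nr4a1* at 97.1% ± 9.88, 109% ± 6.87 and 91.2% ± 8.56. *Fos* stayed between 96.1% and 99.7% of *WT* in the means of the 3 mutant groups. For *Dusp1* the order of means was *Nipbl*+/-, double heterozygote, *Wapl* Δ/+ and *WT*, and no neighbours in it passed the edgeR test.

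**Figure D2:**
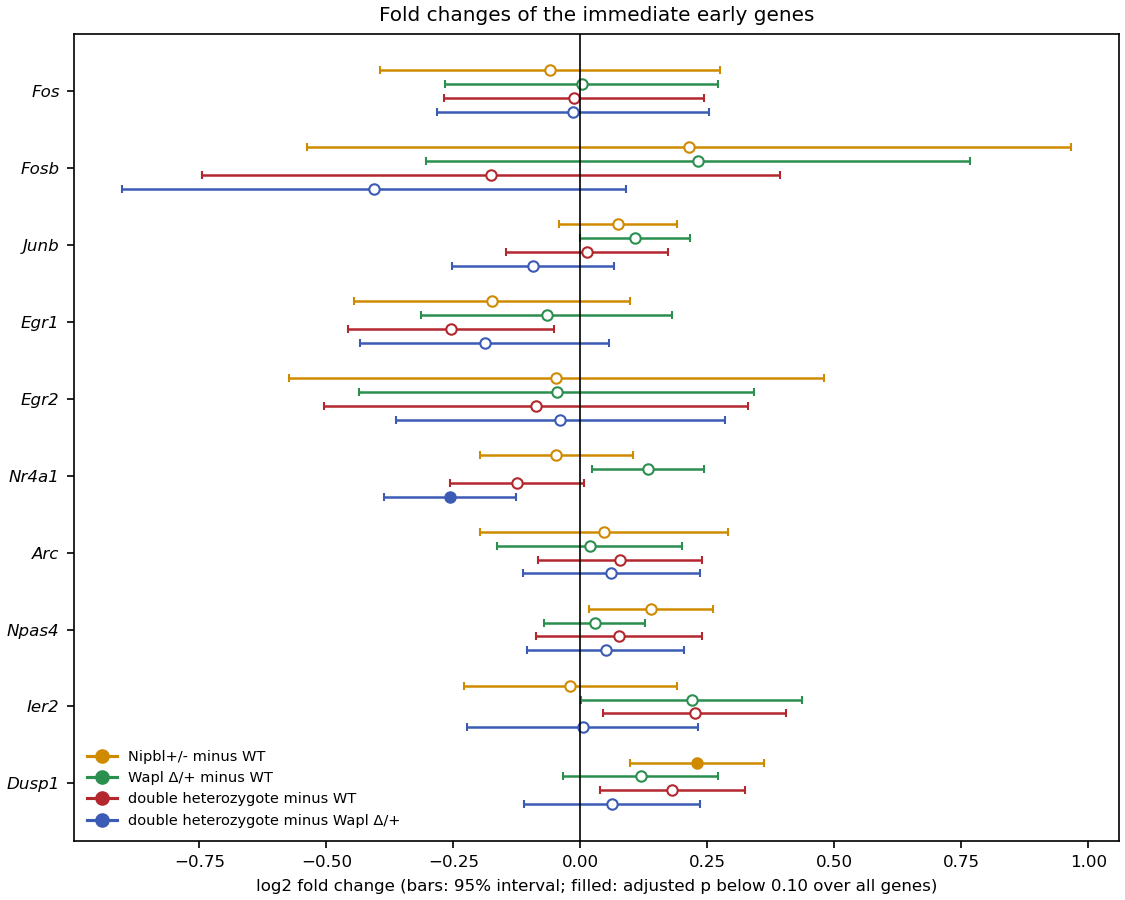
log2 fold change of each immediate early gene (x axis, with bars for the 95% interval) in 4 comparisons of genotypes, filled where the adjusted p over all genes was below 0.10. *Dusp1* in *Nipbl*+/- against *WT* (0.23) and *Nr4a1* in double heterozygotes against *Wapl* Δ/+ (-0.26) are the filled points, and the intervals of *Fosb* and *Egr2* are the widest.

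The direct comparisons of mutant groups ask whether a second heterozygous locus changes these genes. *Nr4a1* fell in double heterozygotes compared with *Wapl* Δ/+ brains. Its normalized counts ran from 406 through a median of 443 to 474 in the 7 *Wapl* Δ/+ libraries and from 316 through a median of 372 to 414 in the 6 double heterozygotes. All double heterozygotes except replicate 4 were below all *Wapl* Δ/+ libraries, so the groups still overlapped, as did all but 0.894% of the genes tested. The log2 fold change was -0.26 (SE 0.0626, 95% interval -0.39 to -0.13, adjusted p = 0.0737, edgeR). It was the 1 gene of 10 called in this comparison, in which 1.02% of all genes were called, and the 1 of 10 at an unadjusted p below 0.05, beside 9.94% of all genes. The size of the difference was similar in the low (-0.22) and high (-0.34) *mt-Nd3* libraries alone, but neither subset passed the test (adjusted p = 0.631 and 0.367). The call was also lost without any one of double heterozygote replicates 1, 3 and 5 and *Wapl* Δ/+ replicates 1, 3, 4, 6 and 7, with log2 fold changes from -0.29 to -0.22 over all 13 fits that left out a library. *Fosb* had the largest difference in size, -0.41 (-0.90 to 0.09), on 9.40 to 21.9 normalized counts in *Wapl* Δ/+ and 6.71 to 17.4 in double heterozygotes, and *Dusp1* differed by 0.06.

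In double heterozygotes compared with *Nipbl*+/- brains none of the 10 genes was called, and none had an unadjusted p below 0.05 in edgeR or an adjusted p below 0.10 in DESeq2. Among all genes edgeR called 0.00655% in this comparison, and 4.12% had an unadjusted p below 0.05. *Ier2* had a log2 fold change of 0.23 (-0.03 to 0.49), *Fosb* one of -0.40 (-1.14 to 0.34) and *Dusp1*, the gene called in *Nipbl*+/- brains, one of -0.06 (-0.25 to 0.13). In *Nipbl*+/- compared with *Wapl* Δ/+ brains no gene of the 10 was called by either tool, beside 1.16% of all genes by edgeR. *Nr4a1* alone had an unadjusted p below 0.05, as had 10.3% of all genes (log2 fold change -0.17, -0.33 to -0.01, adjusted p = 0.437, edgeR). *Npas4* differed by 0.12 (unadjusted p = 0.0534, edgeR's test) and *Ier2* by -0.23 (-0.53 to 0.07).

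The interaction term compares the effect of *Nipbl* loss with and without the *Wapl* deletion over all 21 libraries. Neither the 10 genes nor any other gene was called by edgeR (0%), with 13.8% of all genes and 1 of the 10 at an unadjusted p below 0.05. Over all genes this 0 depended on the libraries and the tool, since edgeR called 945 without double heterozygote replicate 6 and 253 without *Wapl* Δ/+ replicate 2, and DESeq2 called 793, none of them among the 10. The gene was *Nr4a1*, with an interaction of -0.25 on the log2 scale (95% interval -0.45 to -0.05, adjusted p = 0.255, edgeR's quasi-likelihood test). *Dusp1* (-0.21, -0.47 to 0.05), *Junb* (-0.21, -0.43 to 0.02) and *Fosb* (-0.66, -1.57 to 0.25) also had negative values, with intervals that held 0.

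A further list of 32 immediate early genes from textbook knowledge was counted beside the 10. This list and those below were drawn up with earlier results of these data known, so their counts are descriptive. In *Nipbl*+/- brains 3 rose and 7 fell, against 4.25% and 6.96% of all genes tested. *Nr4a2*, the nuclear receptor of midbrain dopamine neurons and a paralog of *Nr4a1*, had 1173 to 1298 normalized counts in *WT* and 924 to 993 in *Nipbl*+/- libraries, which did not overlap, and fell with a log2 fold change of -0.36 (SE 0.0471, adjusted p = 1.82e-04, edgeR). *Klf6*, a Krüppel-like zinc finger factor, fell without overlap from 2272 to 2404 in *WT* to 1947 to 2100 in *Nipbl*+/- libraries (-0.23, adjusted p = 0.00137). *Fosl2*, an AP-1 subunit of the FOS family, fell by 0.45 on the log2 scale (adjusted p = 0.00497, edgeR), on 1274 ± 96.6 (SD, n = 5) in *WT* and 934.2 ± 199 (SD, n = 3) in *Nipbl*+/- brains. *Ccn2*, a secreted matricellular protein, fell by 0.37, and *Homer1*, a postsynaptic scaffold of which only the short isoform is an immediate early product, by 0.25. Counts per gene do not separate the isoforms of *Homer1*. *Ier5*, a relative of *Ier2*, rose without overlap from 1129 to 1360 in *WT* to 1391 to 1653 in *Nipbl*+/- libraries, a log2 fold change of 0.32 (SE 0.0609, adjusted p = 0.00275, edgeR). The other 2 that rose were *Btg2* and *Jund*, named here after their values were seen.

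In *Wapl* Δ/+ brains none of the 32 was called by edgeR and 1 by DESeq2, with 10 at an unadjusted p below 0.05 in edgeR, beside 15.6% of all genes. Of the 32 log2 fold changes, 27 were above 0 (median 0.11, beside -0.0034 over all genes). In double heterozygotes 2 of the 32 rose and 3 fell, against 0.812% and 2.46% of all genes. *Nr4a2* fell by 0.39 (adjusted p = 0.00159, edgeR), from 1173 to 1298 in *WT* to 761 to 1057 in double heterozygotes without overlap. *Fosl2* fell by 0.39 (adjusted p = 0.0093) and *Homer1* by 0.19 (adjusted p = 0.0383), and *Ier5* rose by 0.24 (adjusted p = 0.0207). The call of *Homer1* was lost without *WT* replicate 1 or 4 (adjusted p = 0.128 and 0.117, edgeR). *Btg2*, an antiproliferative gene of neurogenic progenitors, rose by 0.29 at the edge of the threshold (adjusted p = 0.0976). That call was lost without any one of the 5 *WT* libraries or of double heterozygote replicates 1, 2, 4 and 6, with adjusted p from 0.143 to 0.244 in edgeR. *Nr4a2* was also lower in double heterozygotes than in *Wapl* Δ/+ brains, as the 1 gene of the 32 called there, beside 1.02% of all genes. Between double heterozygotes and *Nipbl*+/- brains none of the 32 was called by edgeR, with 2 at an unadjusted p below 0.05, beside 4.12% of all genes.

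*Dusp1* is one of the negative feedback genes of MAP kinase signalling. Of 11 others, dual-specificity phosphatases, Sproutys and Spreds, 4 fell and none rose in *Nipbl*+/- brains, in which *Dusp1* rose, beside 6.96% and 4.25% of all genes, with a median log2 fold change of -0.17. *Dusp5*, a nuclear ERK phosphatase, fell by 0.52 (SE 0.135, adjusted p = 0.0217, edgeR), from 102.7 ± 9.88 (SD, n = 5) to 71.5 ± 11.5 (SD, n = 3), a call lost without *Nipbl*+/- replicate 3 (-0.39, adjusted p = 0.127). *Spred1*, an inhibitor of RAF activation, fell by 0.22 (adjusted p = 0.00447), and the other 2 that fell were *Spry2* and *Spry4*. None of the 11 was called by edgeR in *Wapl* Δ/+ or double-heterozygote brains against *WT*. At an unadjusted p below 0.05 in edgeR there were 1 and 3, beside 15.6% and 13.5% of all genes. DESeq2 called 0 and 2, for which no share over all genes is given here. Of 22 upstream regulators, the SRF, CREB and MEF2 factors with their cofactors and kinases, 2 rose (*Crtc2* and *Map2k2*) and 5 fell (*Creb1*, *Mrtfb*, *Mef2a*, *Mef2c* and *Camk4*) in *Nipbl*+/- brains, beside 4.25% and 6.96% of all genes. In *Wapl* Δ/+ brains *Crtc2* and *Map2k2* rose and *Elk1*, *Mrtfb* and *Crebbp* fell, beside 0.769% and 1.45% of all genes. In double heterozygotes none rose and *Mef2c* and *Rps6ka5* fell, beside 0.812% and 2.46% of all genes. The names of feedback, upstream and stress genes and of cell markers without a fold change were chosen after their values were seen. The list median of the log2 fold changes was -0.06, -0.05 and -0.01 in these comparisons.

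Genes listed as late response genes stood lower as a set in both groups with reduced *Nipbl*, and not in *Wapl* Δ/+ brains. Whether they are targets of the immediate early wave in this tissue was not tested. Of 12 late response genes, which encode secreted peptides and synaptic regulators such as *Bdnf*, *Nptx2*, *Vgf*, *Scg2*, *Inhba* and *Penk*, 9 fell and none rose in *Nipbl*+/- brains, beside the 6.96% of all genes that fell. The median log2 fold change of the 12 was -0.30, and all 12 were negative. In double heterozygotes 7 of the 12 fell, against 2.46% of all genes, with a median of -0.24. In *Wapl* Δ/+ brains none was called by edgeR or DESeq2, and the median was -0.02. There 3 had an unadjusted p below 0.05 in edgeR, beside 15.6% of all genes. Their summed normalized count ran from 13366 to 13807 in *WT*, from 10264 to 12127 in *Nipbl*+/-, from 10959 to 12845 in double-heterozygote and from 12362 to 14799 in *Wapl* Δ/+ brains. All *WT* libraries were above all libraries of both groups with reduced *Nipbl*. Of 9 heat shock and stress genes, whose rise can follow handling of the tissue, 1 fell in *Nipbl*+/- brains (*Hspa5*), beside 6.96% of all genes. In double heterozygotes 2 rose (*Hspb1* and *Dnajb1*), beside 0.812% of all genes. None was called in *Wapl* Δ/+ brains by edgeR, with 1 at an unadjusted p below 0.05, beside 15.6% of all genes. Between the mutant groups, 2 feedback genes (*Spry1* and *Spry4*) and 4 late response genes fell in double heterozygotes compared with *Wapl* Δ/+ brains, and *Nr4a2*, *Ccn2* and 5 late response genes were lower in *Nipbl*+/- than in *Wapl* Δ/+ brains. Of all genes, 1.02% and 1.16% were called in these comparisons, in either direction. No gene of these lists was called by edgeR between double heterozygotes and *Nipbl*+/- brains, where 8 of the 86 genes had an unadjusted p below 0.05, beside 4.12% of all genes. Nor was any called for the interaction, where 18 of the 86 had one, beside 13.8% of all genes.

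**Figure D3:**
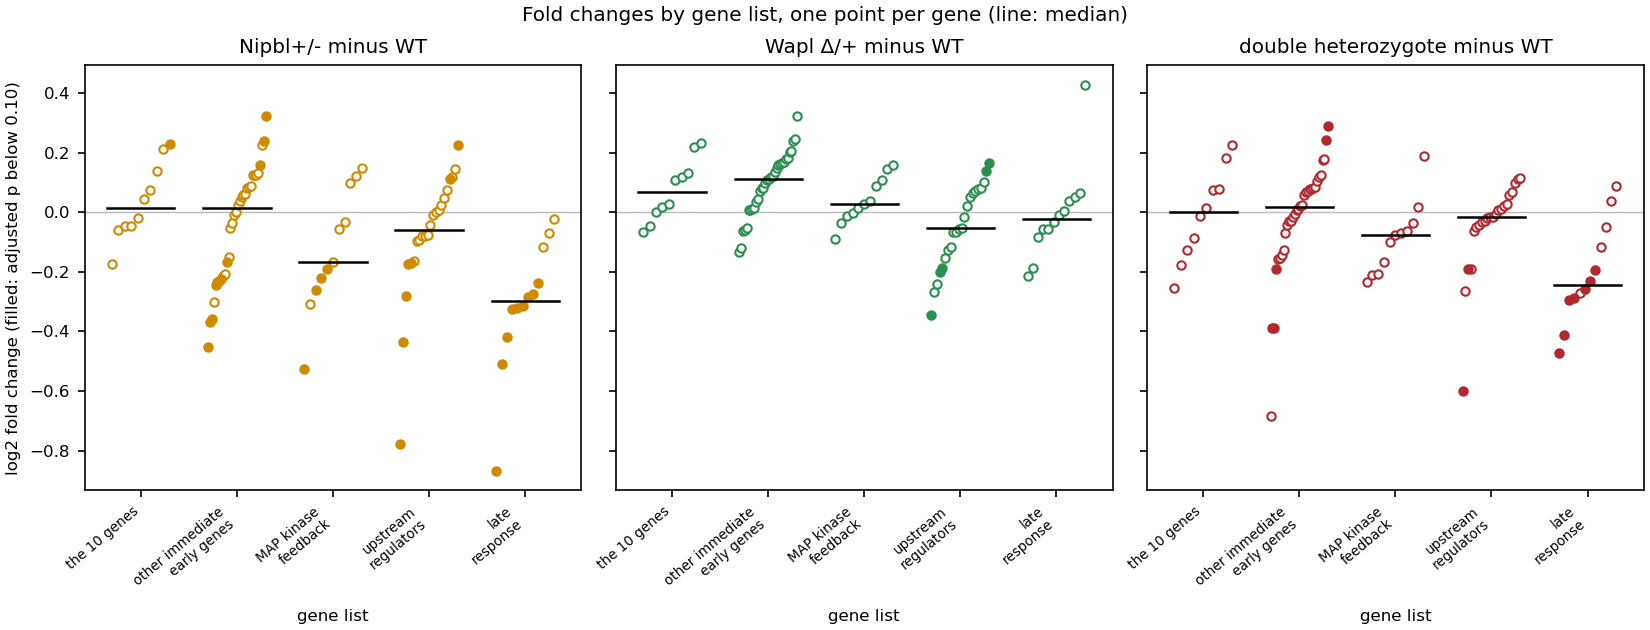
log2 fold change (y axis) of every gene of 5 lists (x axis) in each mutant group against *WT*, with a line at the list median and filled points where the adjusted p over all genes was below 0.10. The 10 immediate early genes centre near 0 in *Nipbl*+/- (0.01) and double-heterozygote brains, while the late response genes centre at -0.30 and -0.24.

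Markers of other cells moved in part of these comparisons. Of all genes tested, 4.25% rose and 6.96% fell in *Nipbl*+/- brains. The shares that rose and fell were 0.769% and 1.45% in *Wapl* Δ/+ and 0.812% and 2.46% in double-heterozygote brains. In *Nipbl*+/- brains 6 of 9 markers of microglia and macrophages fell, with their sum between 2470 and 3042 normalized counts against 3296 to 3792 in *WT*. Of 11 neuronal markers 2 fell there (*Snap25* and *Syt1*), with sums of 151228 to 160446 against 160113 to 166379, and of 9 progenitor markers 3 rose (*Sox2*, *Nes* and *Eomes*), with sums of 18539 to 25086 against 19348 to 20704. In *Wapl* Δ/+ brains 4 of 9 meningeal markers rose (*Col1a1*, *Col1a2*, *Col3a1* and *Gjb2*), with sums of 19923 to 34027 against 18065 to 23207 in *WT*. In *Nipbl*+/- brains 1 of the 9 meningeal markers rose and 1 fell, 2 of 8 mural markers fell and 1 of 8 blood markers rose. Of the 8 mural markers 1 rose in *Wapl* Δ/+ brains. In double heterozygotes 2 of 9 microglial markers (*Cx3cr1* and *Cd163*) and 1 of 11 neuronal markers (*Syt1*) fell, and no meningeal, mural or blood marker was called. Of 10 endothelial markers, cells in which *Dusp1*, *Ier2* and *Junb* are also transcribed, 1 rose (*Cdh5*) and 1 fell (*Ly6c1*) in *Nipbl*+/- brains and 1 rose (*Cdh5*) in *Wapl* Δ/+ brains, and their sums overlapped between all groups. The defining markers of these cells were read in every library, and their part in the values of the 10 genes was not tested.

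The correlations between embryos differed from pair to pair of the 10 genes. Counting error lowers r for the shallow genes *Fos*, *Fosb* and *Egr2*, so their pairs cannot show whether a program is shared. After each log2 CPM value was centred on its group mean, the 45 pairs had correlations over the 21 libraries from -0.54 to 0.70, with a median Pearson's r of 0.10, and 31 of 45 were positive. None had an adjusted p below 0.05, and 4 had one below 0.10. All 4 were at 0.0544 by a permutation test within groups with Benjamini-Hochberg adjustment over the 45 pairs. Pairs of genes outside the 10 were not examined, so these values do not set the 10 apart from other genes. *Ier2* and *Dusp1* had r = 0.70 (rho = 0.73, permutation p = 0.00355 and 0.00221). Their r was 0.64 without the 2 libraries farthest from the median *Ier2*, and 0.70 in each of the low and high *mt-Nd3* sets alone. *Egr1* and *Arc* had r = 0.68 (rho = 0.67, permutation p = 0.00442 and 0.00346), 0.54 without the 2 libraries farthest in *Egr1*, and 0.62 and 0.67 within the low and high sets. *Egr1* and *Nr4a1* had r = 0.64 (rho = 0.63, permutation p = 0.00305 and 0.00616), 0.56 without the 2 farthest libraries, and 0.77 and 0.80 within the sets. *Npas4* and *Ier2* varied in opposite directions, with r = -0.54 (rho = -0.54, permutation p = 0.00484 and 0.0155), -0.41 without the 2 farthest libraries, and -0.33 and -0.60 within the sets. The adjusted p of rho was 0.0554 for the first 3 pairs and 0.116 for the last. *Fos* with *Fosb*, both near the counting limit, had r = 0.56 (adjusted p = 0.173, permutation test). *Ier2* and *Junb*, which lie 314056 bases apart on chromosome 8, had r = 0.02.

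**Figure D4:**
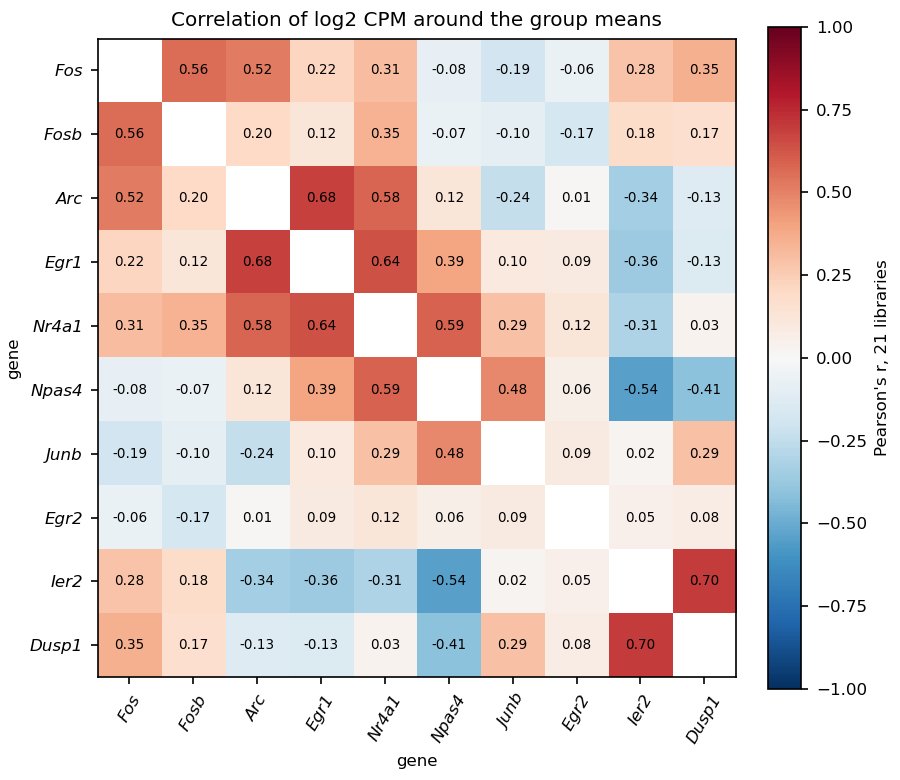
Pearson's r over 21 libraries between the centred log2 CPM values of each pair of immediate early genes (colour scale from -1 to 1, value in each cell). *Arc*, *Egr1* and *Nr4a1* have positive values with each other (0.58 to 0.68), as do *Ier2* and *Dusp1* (0.70), and *Ier2* has negative values with *Npas4*, *Egr1*, *Arc* and *Nr4a1*.

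**Figure D5:**
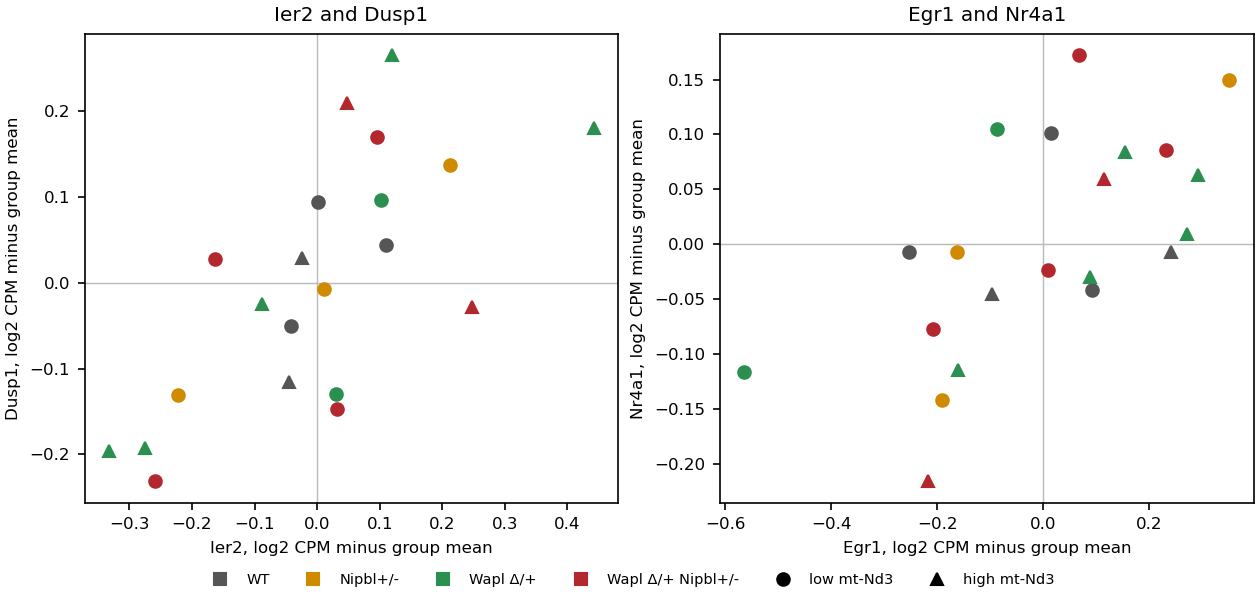
Centred log2 CPM of *Dusp1* against *Ier2* (left) and of *Nr4a1* against *Egr1* (right), 1 point per library, coloured by genotype and shaped by *mt-Nd3* set. Over the 21 libraries r is 0.70 on the left and 0.64 on the right.

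Over the same 21 libraries, the genes with the pattern most like the mean of the 10, among those with a mean of at least 1 CPM, were *Tfap4* (r = 0.71), *Tmem164* (0.69), *Gm26542* (0.69), *Cxcr4* (0.69) and *9130023H24Rik* (0.69). For *Fos* alone they were *Gm11706* (0.77), *Cbfb* (0.73), *3110001I22Rik* (0.72), *Plk-ps1* (0.71) and *Rps23-ps1* (0.71), all with Pearson's r on centred values. No gene reached an r as high as 0.8 with either, and these highest of many values are described without a test. *Fos* varied by 14.5%, close to the 13.6% of counting error, and the mean weighs *Fosb*, at 6 to 22 read counts, like the deeper genes. Without centring, r was 0.52 for *Gm11706* with *Fos* and 0.44 for *Cxcr4* with the mean. It stayed at 0.73 for *Cbfb* with *Fos* and was 0.72 for *Gm26542* with the mean.

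The 10 genes lie on 8 chromosomes, with *Junb* and *Ier2* on chromosome 8, *Arc* and *Nr4a1* on chromosome 15, *Fos* on 12, *Fosb* on 7, *Egr1* on 18, *Egr2* on 10, *Npas4* on 19 and *Dusp1* on 17. In the RefSeq annotation of GRCm38.p6, *Egr2* alone overlaps another gene, the long noncoding RNA *Gm32255*. The strand setting of the counting is not given in the sources used here, so reads from that pair may not be told apart.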

How the data were processed

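The authors trimmed paired-end reads of poly(A) RNA with cutAdapt 2.4, mapped them to mm10 with STAR 2.5.3a, counted them on genes with featureCounts of Subread 1.6.4 and deposited raw counts (per the labels and the methods). The annotation and strand setting are not given in the sources used here, and a library the authors excluded was not analysed here. Genes were kept if their normalized counts summed to at least 10 across libraries (30552 genes). The quasi-likelihood test of edgeR 4.0.16 with TMM scaling was run under R 4.3.3 for each pair of groups, without the libraries of the other groups, while all 21 entered the interaction fit. A gene was called below 0.10 after Benjamini-Hochberg adjustment over all genes. DESeq2 1.42.0 served as an alternative, and the edgeR step was tested on simulated counts. Pairs of genes were correlated on log2 CPM (prior count 2) centred on group means, with 100000 permutations within groups in Python 3.11.15. All 10 genes are named, with at most the 8 genes of smallest p of the lists of other immediate early and feedback genes in each comparison with *WT*, and the 5 most like genes. The genes and lists were chosen with earlier results of these data known.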

Additional observations from a re-analysis of the deposited data

Results flagged for a closer look

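*Nr4a1* in *WT* replicate 3 (432.9 normalized counts) lay farther above the other 4 *WT* libraries, which ran from 391 to 402, than Dixon's limit for 5 samples allows. *Ier2* in *WT* replicate 2 (203.2 normalized counts) did the same above 182 to 188. These were 2 of 30 groups examined, and chance alone flags about 1 in 20. Neither sample was left out. The summed count of 6 pituitary markers was also highest in *WT* replicate 2, at 2802 normalized counts. It ran from 58.0 to 72.6 in the other *WT* libraries. In double heterozygotes it reached 1258 in replicate 6 and 353 in replicate 5. The part of pituitary transcripts in these values, or in the calls that changed without these libraries, was not tested.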

How the results depend on the processing

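Depth limited *Fos* and *Egr2*, whose spread between embryos was close to or below counting error, and the 3 *Nipbl*+/- libraries limited every comparison with that group. Of 1133 alternative log2 fold changes of the genes named, 1039 kept their direction and side of the threshold, 44 lost and 4 gained a call, and 46 changed sign. Between mutant groups and for the interaction, only the immediate early genes given with a value in the text were counted. Sign changes of the others there are not included. Each change of sign was in a gene that was not called in that comparison. Over all genes, the count called ran over the alternatives from 1658 to 4788 in *Nipbl*+/-, from 7 (the fit of all 4 groups) to 1991 (the replicate block) in *Wapl* Δ/+ and from 1 (the high *mt-Nd3* libraries) to 2504 (without replicate 5) in double-heterozygote brains against *WT*. The cause was not tested for any of these changes.

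Of the 10 genes, the 1 called in *Nipbl*+/- against *WT* (*Dusp1*) became 0 in a fit of all 4 groups (adjusted p = 0.163), in the low *mt-Nd3* libraries (0.160), with an *mt-Nd3* term (0.129) and with a replicate block (0.182), all by edgeR. Leaving out a library gave 0 to 2, with 0 without *Nipbl*+/- replicate 1 and 2 without replicate 2. In double heterozygotes against *Wapl* Δ/+ the 1 called (*Nr4a1*) became 0 at an adjusted p below 0.05, in the high and in the low *mt-Nd3* libraries and with the *mt-Nd3* term (-0.28, adjusted p = 0.117, edgeR), and 0 or 1 without a library. In double heterozygotes against *WT* the count was 0 to 2, with 2 without double heterozygote replicate 3, and in *Wapl* Δ/+ against *WT* it was 1 with a replicate block (*Ier2*, 0.29, adjusted p = 0.083, edgeR). The labels number the replicates in each group without saying that a number is shared; over 25 pairs with the same number the correlation of deviations ran from -0.21 to 0.37, above 0.1 in 7, so the numbers were not taken to pair the samples. Replicate 1 of the 3 mutant groups correlated at 0.37, 0.30 and 0.23, each best with its own number as in 7 of the 25 pairs, which is a hint from the data and not from the design.

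Of the 32 other immediate early genes, the 10 called in *Nipbl*+/- against *WT* became 6 at an adjusted p below 0.05, 5 in the fit of all 4 groups, 6 in the low *mt-Nd3* libraries, 6 with the *mt-Nd3* term and 6 with the replicate block, and 6 to 13 without a library, 6 without *Nipbl*+/- replicate 1 or 3. In double heterozygotes the 5 called became 3 in the fit of all 4 groups, 0 in the high *mt-Nd3* libraries and 3 with the replicate block, and 3 to 7 without a library, 3 without *WT* replicate 1 or 4. In the high *mt-Nd3* libraries 1 of the 30552 genes was called at all. The log2 fold changes of *Nr4a2* (-0.50), *Fosl2* (-0.41) and *Ier5* (0.35) were no smaller there than with all libraries. Those of *Homer1* (-0.16) and *Btg2* (0.25) were smaller. *Homer1* lost its call with the block (adjusted p = 0.143), and *Ier5* in the fit of all 4 groups (0.159) and in the low *mt-Nd3* libraries (0.155), all by edgeR. In *Wapl* Δ/+ brains the 0 called became 1 with DESeq2 and 4 with the replicate block, and 0 to 2 without a library, 2 without *Wapl* Δ/+ replicate 2. Of the late response genes, the 7 called in double heterozygotes became 0 in the high *mt-Nd3* libraries, and the 0 in *Wapl* Δ/+ brains became 1 in the low *mt-Nd3* libraries and 1 with the replicate block. The feedback genes called in *Nipbl*+/- brains ran from 1, without *Nipbl*+/- replicate 3, to 7, without replicate 2, and numbered 2 without *WT* replicate 2, 3 or 4. They numbered 1 in double heterozygotes without replicate 3 or 5 and 1 in *Wapl* Δ/+ brains without replicate 7. Other settings gave 2 in *Nipbl*+/- brains in place of 4 at an adjusted p below 0.05, in the fit of all 4 groups, with DESeq2 size factors, in the low *mt-Nd3* libraries and with the replicate block. Without a library, the upstream regulators called ran from 5 to 10 in *Nipbl*+/- brains, from 0 to 6 in *Wapl* Δ/+ brains (0 without *WT* replicate 1 or 2, 1 without *WT* replicate 5, 2 without *WT* replicate 4, 3 without *Wapl* Δ/+ replicate 4 or 5) and from 1 to 4 in double heterozygotes (1 without replicate 1 or 4 or *WT* replicate 1, 2 or 5, 4 without replicate 3 or 5). Other settings extended this to 3 in *Nipbl*+/- brains (the fit of all 4 groups), 8 in *Wapl* Δ/+ brains (the replicate block) and 0 in double heterozygotes (the high *mt-Nd3* libraries).

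Among the log2 fold changes counted, the sign changed as follows. In the low *mt-Nd3* libraries *Arc* (-0.18), *Fos* (-0.16) and *Egr2* (0.28) did so in *Wapl* Δ/+ brains, and *Egr2* in *Nipbl*+/- (0.21) and double-heterozygote (0.16) brains. With the *mt-Nd3* term *Arc* (-0.014) and *Fos* (-0.011) did so in *Wapl* Δ/+ and *Egr2* (0.21) in *Nipbl*+/- brains. In the high *mt-Nd3* libraries *Fos* (0.10), *Junb* (-0.058) and *Npas4* (-0.11) did so in double heterozygotes. With the replicate block *Arc* (-0.015) and *Egr2* (0.00473) did so in *Wapl* Δ/+, *Egr2* (0.22) in *Nipbl*+/- and *Junb* (-0.037) in double-heterozygote brains, and beyond the *Dusp1* and *Ier2* calls given above the block changed no call among the 10 genes. *Fos* was at -0.00415 in *Wapl* Δ/+ brains under filterByExpr, and *Ier2* at 0.011 in *Nipbl*+/- brains in the fit of all 4 groups.

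Leaving out a library gave these ranges where a sign changed among the fold changes counted. In *Nipbl*+/- against *WT* they were -0.12 to 0.14 for *Arc*, -0.16 to 0.12 for *Egr2*, -0.17 to 0.093 for *Fos*, -0.035 to 0.59 for *Fosb*, -0.13 to 0.085 for *Ier2* and -0.13 to 0.032 for *Nr4a1*. In *Wapl* Δ/+ against *WT* they were -0.022 to 0.056 for *Arc*, -0.13 to 0.014 for *Egr1*, -0.15 to 0.12 for *Egr2* and -0.058 to 0.055 for *Fos*. In double heterozygotes against *WT* they were -0.19 to 0.078 for *Egr2*, -0.063 to 0.043 for *Fos*, -0.29 to 0.043 for *Fosb* and -0.038 to 0.084 for *Junb*, and against *Nipbl*+/- brains -0.12 to 0.00840 for *Dusp1*. The correlations within the *mt-Nd3* sets were chosen after seeing the data.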
